A study of Mus musculus with 15 samples.

Results

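Serine palmitoyltransferase and the ceramide synthases make up the front end of sphingolipid synthesis, and 9 of their genes were followed here through mouse T cells that carry or lack a conditional knockout of Hpgd, the gene for hydroxyprostaglandin dehydrogenase, which degrades prostaglandin E2. The genes were the subunits Sptlc1, Sptlc2 and Sptssa, the inhibitors Ormdl1, Ormdl2 and Ormdl3, and the synthases Cers2, Cers5 and Cers6. They were picked by name, and all 9 were among the 17594 genes measured, which is what the choice used. All 9 also passed the filter on low values. Results of these data were already known when the genes were picked, so the p-values below describe a fit across all genes and are not independent support for the choice.

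RNA was sequenced from CD4+ T cells sorted from the spleens of C57BL/6 mice. Regulatory T cells (Treg), which are marked by the transcription factor Foxp3, were set beside conventional CD4+ T cells (Tconv). Knockout (KO) animals carried the conditional Hpgd allele together with Foxp3-Cre-YFP, a Cre driven from Foxp3, so recombination is aimed at Treg, and Tconv KO are conventional cells of such animals, at which a Foxp3-driven Cre is not aimed. Control animals are labelled wild-type (WT), and their labels do not say whether they carry Foxp3-Cre-YFP or the unrecombined allele. There were 4 Treg KO, 4 Treg WT, 4 Tconv KO and 3 Tconv WT libraries. No age or sex is given.

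Serine palmitoyltransferase sits in the endoplasmic reticulum and condenses serine with palmitoyl-CoA, which commits carbon to sphingolipids. Sptlc1 and Sptlc2 form its core, a small subunit such as Sptssa raises its activity, and the Ormdl proteins hold it back when ceramide is plentiful. Ceramide synthases then attach a fatty acid, each with its own preferred chain length, and ceramide is turned into sphingomyelin, glycosphingolipids or sphingosine 1-phosphate, the lipid that guides T cells out of lymphoid organs.

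Values are the authors' normalized read counts, called normalized counts below. Libraries held 2.64 to 4.71 mega-reads (M) assigned to genes in Treg KO, 6.43 to 10.0 M in Treg WT, 2.95 to 10.3 M in Tconv KO and 6.60 to 11.1 M in Tconv WT. Foxp3 lay between 3314 and 4590 normalized counts in Treg KO and between 4006 and 4800 in Treg WT, and did not exceed 69.5 in Tconv KO or 20.6 in Tconv WT. Foxp3, Il2ra, Ctla4, Ikzf2, Tnfrsf18 and Nrp1 served as 6 Treg markers. Their sum ran from 1348 to 6786 in Tconv KO and from 2193 to 2453 in Tconv WT. In Treg it ran from 23530 to 29338 in KO and from 20342 to 22069 in WT. Tconv KO libraries thus spread wider than Tconv WT libraries, with Ikzf2 at 366 to 3195 against 738 to 870. The part of this spread in the results was not tested. Hpgd itself had 0 reads in Treg KO, which allows up to 0.193 reads per M (3 counts, counting error only), and 1 read in Treg WT, so this gene cannot check the genotype labels. Xist, the RNA that coats the inactive X chromosome, lay between 8644 and 19007 in all 8 KO libraries and at 5.52 or less in all 7 WT libraries, while the Y-linked Ddx3y had 0 reads in every KO library and at least 1154 normalized counts in every WT library. Sex and genotype therefore cannot be told apart in any KO against WT comparison below. The sample numbers also split by genotype, from 483 to 490 in WT and from 574 to 581 in KO. Anything else that differed between these ranges of sample numbers cannot be told apart from genotype either. The 4 cycling markers Mki67, Top2a, Birc5 and Ccnb1 summed to 1210 to 1597 in Treg KO and 258 to 587 in Treg WT, and to 597 to 1140 in Tconv KO and 246 to 299 in Tconv WT. Their part in the results was not tested. In bulk RNA, fewer cells with a transcript and less transcript per cell cannot be told apart.

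Sptssa, the small activating subunit, was the member that fell in Treg KO. Its gene (ENSMUSG00000044408.7) lies on the minus strand of chromosome 12 at 54645392 to 54656573 (GRCm38), and its exons cover 1518 bases. The 300 bases around its RefSeq start (chr12:54656523-54656822, minus strand, GRCm38.p6, 250 bases before the start and 50 after) are shown because the genotype results turn on this gene. Capitals mark short promoter motifs: the CRE core TGACG 33 bases before the start, CCAAT boxes 101 and 12 bases before it, and GC boxes (GGGCGG) 135 bases before and 10 bases after it.
Sptssa: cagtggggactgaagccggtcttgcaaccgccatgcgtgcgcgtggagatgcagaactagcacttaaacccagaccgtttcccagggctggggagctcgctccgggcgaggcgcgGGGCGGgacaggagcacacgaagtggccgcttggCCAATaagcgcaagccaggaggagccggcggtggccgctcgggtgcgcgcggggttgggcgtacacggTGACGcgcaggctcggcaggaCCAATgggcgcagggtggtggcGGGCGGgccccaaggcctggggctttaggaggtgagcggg

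The Treg KO libraries held 249.5, 284, 282 and 290.2 normalized counts of Sptssa, against 421, 420.0, 408 and 469.9 in Treg WT. All 4 Treg KO libraries lay below all 4 Treg WT libraries, and the gap between the groups was wider than the range of either. Means were 276 ± 18.3 in Treg KO and 429.9 ± 27.3 in Treg WT (SD, n = 4 each). The log2 difference was -0.64 ± 0.08 (SE), a ratio of 0.644, with a 95% interval of -0.80 to -0.47 and an adjusted p of 1.4e-04 in limma. These values rest on 131 to 234 reads per library in Treg KO and 530 to 702 in Treg WT. The fall kept its sign and its call in every alternative run, between -0.82 with GC trends removed and -0.46 with the length trend removed (adjusted p = 0.0051). These trends are each library's drift of log2 value with a gene's GC content, 40.7% for Sptssa, or with its length. Leaving out each library in turn moved the difference between -0.66 and -0.59.

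In conventional cells no fall of Sptssa was measured. Tconv KO libraries held 432, 439.8, 499 and 395 normalized counts of Sptssa, against 379, 385 and 368 in Tconv WT. Every Tconv KO library lay above every Tconv WT library, but the difference of 0.22 ± 0.09 on the log2 scale did not pass (adjusted p = 0.31, 95% interval 0.04 to 0.40). The interaction, which sets the KO against WT difference of Treg against that of Tconv, was -0.86 ± 0.12 for Sptssa (adjusted p = 0.0078, 95% interval -1.10 to -0.61). Of the 11314 genes tested, 17 passed this interaction test, 0.15% (0.0354% with a positive and 0.115% with a negative value), and Sptssa was the 1 member among them. With the length trend of each library removed, an alternative added after seeing the data, the interaction was -0.77 and did not pass (adjusted p = 0.055). With both GC and length trends removed it was -0.91 and passed (adjusted p = 0.013).

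The cell types of 1 genotype could also be compared. Treg KO lay below Tconv KO by -0.67 ± 0.08 (adjusted p = 1.4e-05), and these groups did not overlap. Treg WT and Tconv WT did not overlap either, with Treg WT higher by 0.19 ± 0.09, which did not pass (adjusted p = 0.16) unless the fit held these groups alone (adjusted p = 0.040). The comparison with Treg WT and the one with Tconv KO share the Treg KO libraries, so they are not separate observations. The mean levels thus ran 276 ± 18.3 in Treg KO, 429.9 ± 27.3 in Treg WT, 441 ± 42.9 in Tconv KO and 377 ± 8.28 in Tconv WT, with Treg KO apart from all others.

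**Figure D1:**
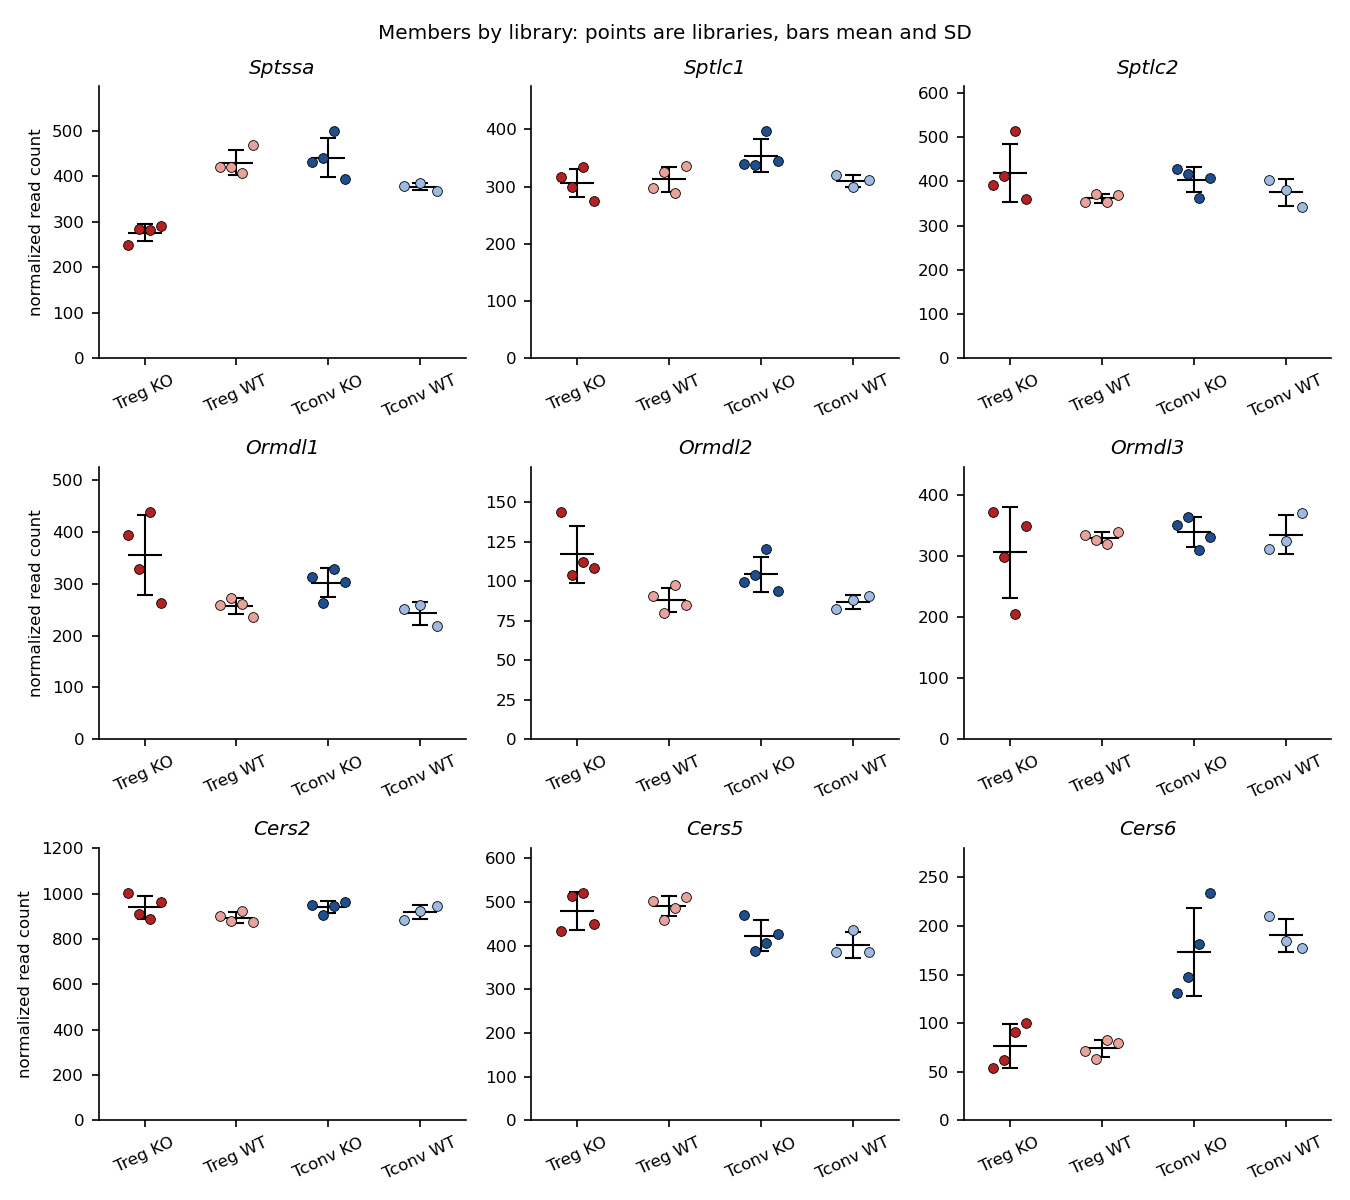
Normalized counts of the 9 genes in each of the 15 libraries, with Treg KO, Treg WT, Tconv KO and Tconv WT from left to right; points are libraries and bars are group means with SD. Sptssa in Treg KO lies between 249.5 and 290.2, below every library of the other groups, and Cers6 is lower in both Treg groups than in both Tconv groups.

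**Figure D2:**
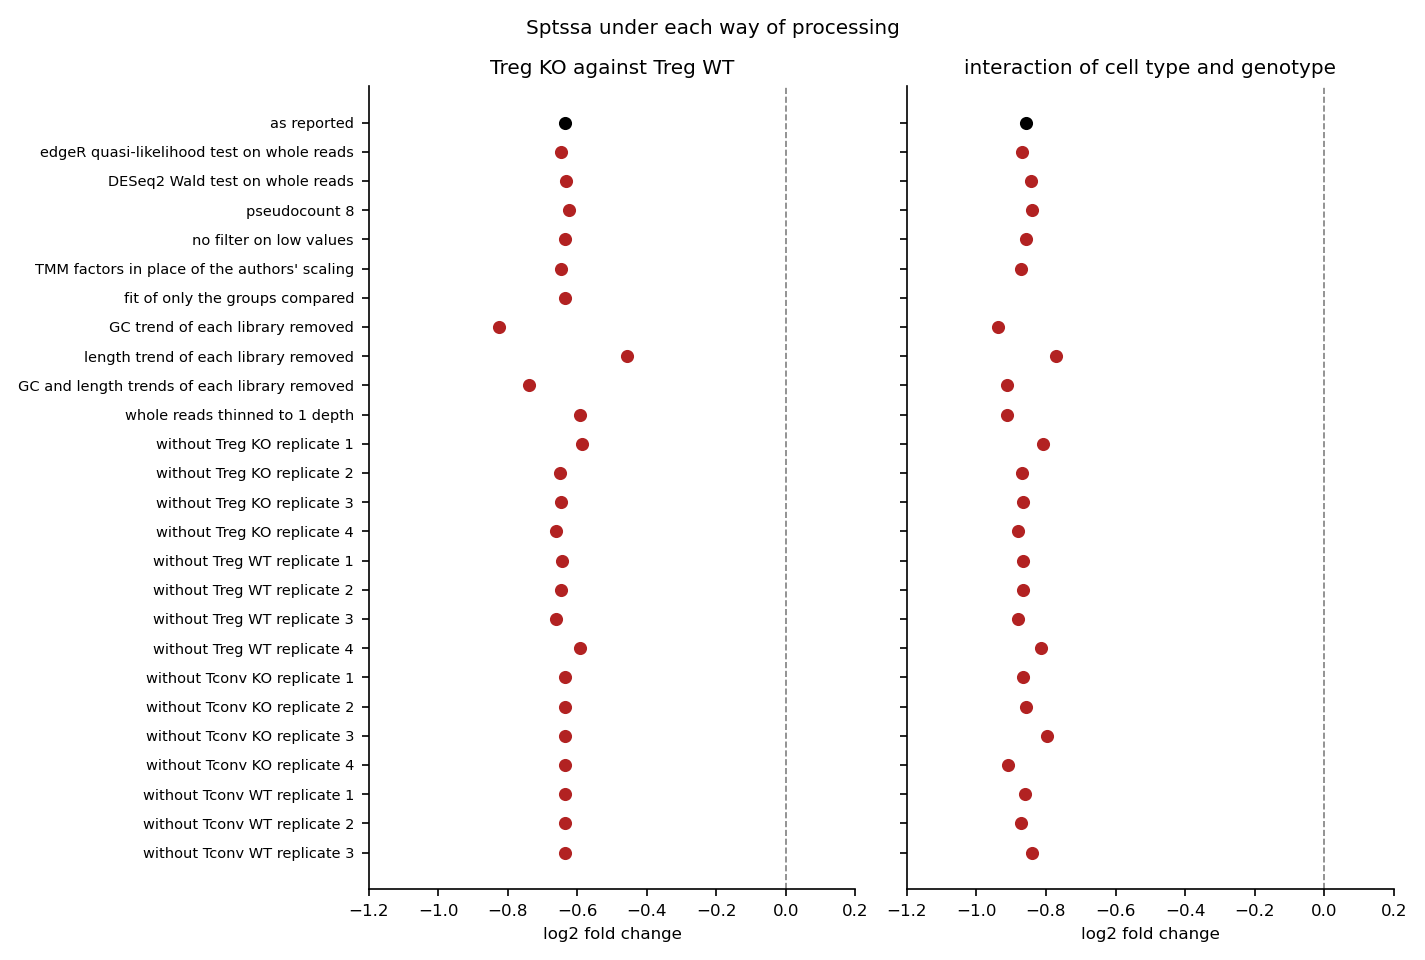
Log2 differences of Sptssa under each way of processing and with each library left out; the black point is the value as reported and red points are the alternatives. The Treg KO against Treg WT difference stays between -0.82 and -0.46, and the interaction reaches -0.77 with the length trend removed.

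For the catalytic core no such fall was measured. Sptlc1, on chromosome 13, pairs with Sptlc2 in the enzyme. Its Treg KO libraries held 316, 299.6, 334 and 275 normalized counts, against 298, 326, 289 and 336 in Treg WT. The groups overlapped fully, and the log2 difference was -0.03 ± 0.08 (adjusted p = 0.83, 95% interval -0.20 to 0.14), an interval that does not reach the fall of Sptssa. In Tconv KO the values were 339, 337, 396 and 344, against 320.0, 299 and 311 in Tconv WT. The Tconv groups did not overlap, and the difference of 0.19 ± 0.09 did not pass (adjusted p = 0.41). Treg KO lay below Tconv KO in every library, by -0.21 ± 0.08 with an adjusted p of 0.061; it passed after removal of the GC trend (0.0061), with the length trend removed (0.043), with both removed (0.0064) and without Treg KO replicate 3 (0.028).

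Sptlc2 carries the residue that holds the pyridoxal phosphate cofactor, and its gene lies on chromosome 12, as does Sptssa. It had 391.7, 412, 513 and 361 normalized counts in Treg KO, against 352, 370.4, 354 and 369.7 in Treg WT. In all, 3 Treg KO libraries lay above every Treg WT library, and replicate 3, the shallowest library of the series, was the highest. The log2 difference was 0.20 ± 0.10 and did not pass (adjusted p = 0.14, 95% interval -0.00 to 0.41). Sptlc2 averaged 403 ± 28.5 in Tconv KO (n = 4) and 375 ± 31.1 in Tconv WT (n = 3), a difference of 0.10 ± 0.10 (adjusted p = 0.71).

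Dividing each level by exon length allows levels of different genes to be set side by side within a library. The ratio of Sptssa to Sptlc1, both per kb, was 2.13 ± 0.273 in Treg KO, 3.23 ± 0.142 in Treg WT, 2.92 ± 0.159 in Tconv KO and 2.85 ± 0.138 in Tconv WT (SD). No Treg KO library exceeded 2.47, and no other library fell below 2.69. The Ormdl sum per kb relative to Sptssa was 1.58 ± 0.324 in Treg KO, 0.915 ± 0.0603 in Treg WT, 0.976 ± 0.0793 in Tconv KO and 1.04 ± 0.0698 in Tconv WT. These ratios follow from the levels already given, so they were not tested.

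Of the inhibitors, Ormdl1 and Ormdl2 rose in Treg KO and Ormdl3 did not pass. Ormdl1 lies on chromosome 1, and its exons share 411 of their 4711 bases with the predicted gene Gm28778. It had 393, 329, 437 and 262 normalized counts in Treg KO, against 258, 272, 260.0 and 236 in Treg WT. The lowest Treg KO library lay within the Treg WT range and the others above it, and the spread in Treg KO was wide (355 ± 76.5 in Treg KO and 256 ± 15.007 in Treg WT). The log2 difference of 0.44 ± 0.13 passed with an adjusted p of 0.025. The call ended in the fit of the Treg groups alone (adjusted p = 0.064), after removal of the GC trend (0.11), with GC and length trends removed (0.13), with libraries thinned to 1 common depth (0.10), and without Treg KO replicate 1 (0.062) or 3 (0.073) or Treg WT replicate 1 (0.059) or 4 (0.073). Tconv KO libraries held 313, 263, 329 and 303, against 250.4, 259 and 219 in Tconv WT. These groups did not overlap, and the difference of 0.31 ± 0.14 did not pass (adjusted p = 0.39). The interaction for Ormdl1 was 0.13 ± 0.19 (adjusted p = 0.88), so no difference between the cell types in the KO against WT change could be shown.

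Ormdl2, on chromosome 10, is a close relative of Ormdl1. It had 144, 104, 112 and 108 normalized counts in Treg KO, against 90.5, 80.0, 97.7 and 85.1 in Treg WT. Every Treg KO library lay above every Treg WT library, and the log2 difference of 0.39 ± 0.12 passed with an adjusted p of 0.033. The call ended in the fit of the Treg groups alone (0.076), after removal of the GC trend (0.23), with GC and length trends removed (0.13), and without Treg KO replicate 1 (0.086) or Treg WT replicate 1 (0.067), 2 (0.090) or 4 (0.078). In Tconv KO the values were 99.6, 104, 120.3 and 93.9, against 82.3, 88.0 and 90.7 in Tconv WT, again without overlap and without a call (0.26 ± 0.13, adjusted p = 0.46). The exons of Ormdl2 share 1114 of their 1670 bases with Dnajc14 on the opposite strand, and the sources used here do not say that reads were counted by strand, so reads of the pair cannot be told apart there. Dnajc14, named for this overlap after its values were seen, averaged 680.4 ± 15.2 in Treg KO and 761 ± 12.4 in Treg WT, a difference of -0.16 ± 0.05 (adjusted p = 0.036). How reads over the shared bases were assigned is not stated, so the values of both genes may depend on it. The part of the overlap in the Ormdl2 result was not tested.

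Ormdl3, on chromosome 11, is the family member tied to childhood asthma in people. Treg KO libraries held 371, 298, 205 and 349 normalized counts, against 334, 326, 319 and 339.5 in Treg WT. Treg KO replicate 3 was the lowest library of all, and the Treg KO range enclosed that of Treg WT. The log2 difference was -0.14 ± 0.14 (adjusted p = 0.48), and without Treg KO replicate 3 it was 0.04. Its mean was 339 ± 24.0 in Tconv KO and 335 ± 31.2 in Tconv WT, a difference of 0.02 ± 0.15 (adjusted p = 0.97). Replicate 3 of Treg KO was thus the highest Treg KO library for Ormdl1, Sptlc2, Sptlc1 and Cers5 and the lowest for Ormdl3 and Cers2, while its Sptssa value of 282 was in the middle of its group.

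Among the 3 ceramide synthases that are members, Cers6 was lower and Cers5 higher in Treg WT than in Tconv WT, and none of the 3 passed between genotypes. Cers2, on chromosome 3, prefers very long acyl chains. It had 1001, 909, 888 and 963 normalized counts in Treg KO, against 900.5, 879, 924 and 874 in Treg WT, and 941 ± 26.4 in Tconv KO against 919 ± 30.9 in Tconv WT. No comparison of Cers2 passed, and the Treg KO against Treg WT difference was 0.07 ± 0.05 (adjusted p = 0.37, 95% interval -0.05 to 0.19).

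Cers5, on chromosome 15, makes ceramides with palmitoyl chains, a preference it shares with Cers6. Its Treg KO libraries held 432, 513, 519 and 449 normalized counts, against 502, 459, 487 and 512 in Treg WT. Those groups overlapped, with a difference of -0.04 ± 0.08 (adjusted p = 0.77). Between cell types it was higher in Treg WT than in Tconv WT, whose libraries held 384, 435 and 384. All 4 Treg WT libraries lay above all 3 Tconv WT libraries, and the difference of 0.29 ± 0.09 passed (adjusted p = 0.031). That call ended with the length trend removed (0.099), at 1 common depth (0.15), and without Treg WT replicate 1 (0.074), 3 (0.060) or 4 (0.079) or Tconv WT replicate 1 (0.13) or 3 (0.12). In KO animals the mean of Cers5 was 479 ± 44.1 in Treg KO and 423 ± 35.2 in Tconv KO, a difference of 0.18 ± 0.08 that did not pass (adjusted p = 0.11) except without Tconv KO replicate 1 (0.043).

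Cers6, on chromosome 2 at 68861441 to 69114282 (GRCm38), showed the largest log2 difference of any member in the comparisons made here. The 300 bases around its RefSeq start (chr2:68861191-68861490, plus strand, GRCm38.p6) are shown for that reason. Capitals mark the TGACG core 63 bases before the start, a CCAAT box 48 bases before it and an E-box (CACGTG) 22 bases before it.
Cers6: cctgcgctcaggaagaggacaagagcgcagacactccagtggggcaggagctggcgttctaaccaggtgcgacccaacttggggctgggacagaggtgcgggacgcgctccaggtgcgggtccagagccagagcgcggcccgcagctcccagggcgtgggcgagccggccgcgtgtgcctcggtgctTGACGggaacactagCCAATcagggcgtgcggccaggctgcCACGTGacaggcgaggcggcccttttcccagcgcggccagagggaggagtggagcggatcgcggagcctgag

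Treg KO libraries held 53.7, 61.9, 90.5 and 100.3 normalized counts of Cers6, against 131, 147, 181 and 233 in Tconv KO. Every Treg KO library lay below every Tconv KO library, although both groups were widely spread. The log2 difference was -1.18 ± 0.20 (adjusted p = 4.2e-04). Treg WT libraries held 71.3, 63.5, 82.6 and 79.8, against 209.7, 184 and 177 in Tconv WT, again without overlap, and the difference was -1.35 ± 0.22, a ratio of 0.392 (adjusted p = 3.6e-04). Both calls held in every alternative and with each library left out. Between genotypes Cers6 differed by 0.00 ± 0.20 in Treg KO against Treg WT (adjusted p = 0.99) and by -0.17 ± 0.22 in Tconv KO against Tconv WT (adjusted p = 0.78). Those intervals, -0.42 to 0.43 and -0.63 to 0.30, are wide, so a moderate change of Cers6 with genotype was not detectable with these libraries. The summed level of 6 CD8 T and NK marker genes was also lower in Treg, at 175 to 218 in Treg KO and 379 to 995 in Tconv KO, and to 132 to 170 in Treg WT and 404 to 484 in Tconv WT. Most of that sum was Nkg7, a cytotoxic granule gene, with means of 110 ± 34.5 in Treg KO against 455 ± 327 in Tconv KO, and of 87.9 ± 11.7 in Treg WT against 316 ± 60.8 in Tconv WT. The CD8 gene Cd8b1 was not lower in Treg, with means of 73.3 ± 20.9 in Treg KO against 67.4 ± 13.9 in Tconv KO, and of 60.8 ± 6.39 in Treg WT against 59.4 ± 11.4 in Tconv WT. Cd8a had at most 6 reads in any group. Klrb1c averaged 5.85 ± 4.50 in Treg KO against 55.2 ± 26.5 in Tconv KO, and 4.77 ± 1.16 in Treg WT against 72.0 ± 31.5 in Tconv WT. Gzma averaged 1.94 ± 2.54 in Treg KO against 15.8 ± 10.6 in Tconv KO, and 0.907 ± 0.750 in Treg WT against 5.61 ± 1.69 in Tconv WT. Ncr1 had 0 reads in every Treg library, 1 read in all of Tconv KO and 1 in all of Tconv WT. The part of CD8 T and NK cells in the Cers6 result was not tested.

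**Figure D3:**
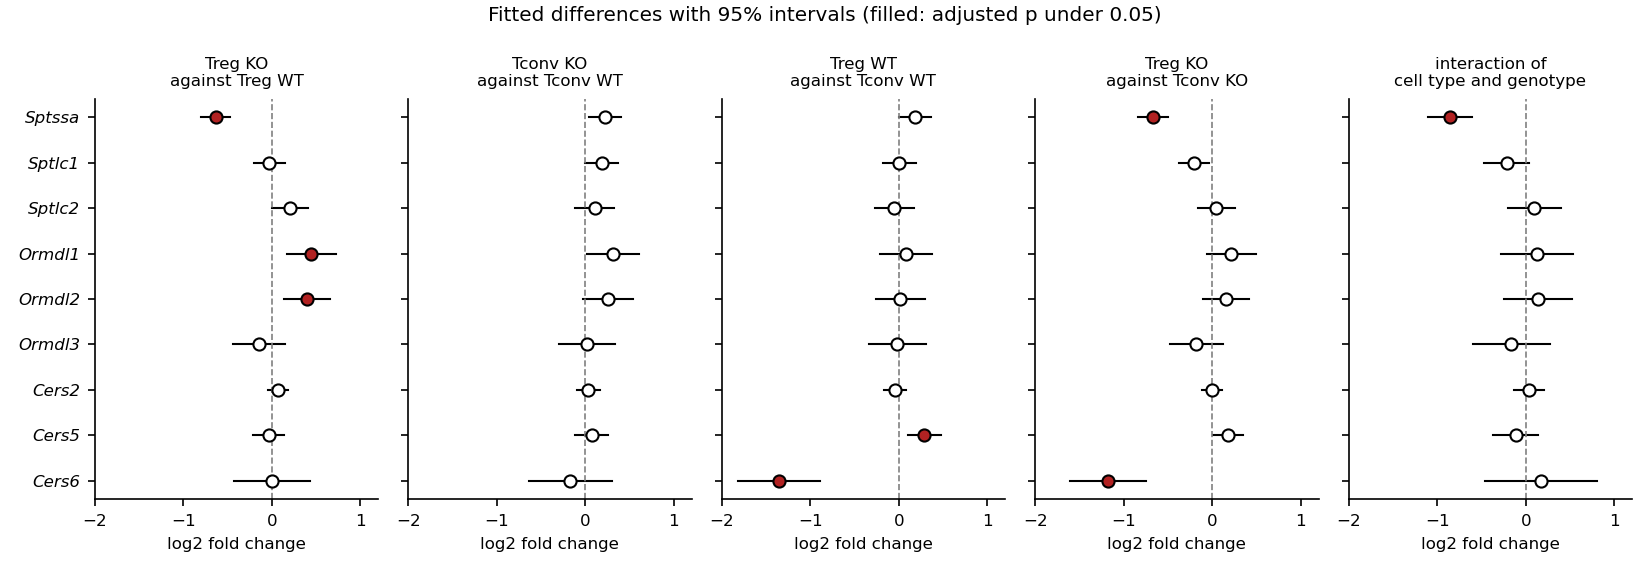
Log2 differences of the 9 genes in the 4 comparisons and the interaction, as estimates with 95% intervals from limma; filled points have an adjusted p under 0.05. Sptssa lies at -0.64 in Treg KO against Treg WT and at 0.22 in Tconv KO against Tconv WT, and Cers6 lies below -1 in both Treg against Tconv comparisons.

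Counted over all members, 3 of 9 passed in Treg KO against Treg WT, Ormdl1 and Ormdl2 higher and Sptssa lower, where 21.5% of all genes tested passed, 10.4% higher and 11.1% lower. Groups did not overlap for 2 of 9, against 26.2% of all genes. The median difference was 0.00 for the members and -0.00 for all genes. In Tconv KO against Tconv WT, 0 of 9 passed, where 0.681% of all genes did, and edgeR and DESeq2 also called 0. Sptssa, Ormdl1 and Sptlc1 had an unadjusted limma p under 0.05 there, as had 1358 of the 11314 genes tested. Groups did not overlap for 4 of 9 there (Sptssa, Sptlc1, Ormdl1 and Ormdl2, all higher in Tconv KO), against 16.3% of all genes. In Treg KO against Tconv KO, 2 of 9 passed, both lower, where 31.4% of all genes passed, 15.8% higher and 15.6% lower. Groups did not overlap for 3 of 9 (Sptssa, Sptlc1 and Cers6), against 24.1% of all genes. In Treg WT against Tconv WT, 2 of 9 passed, 1 in each direction, where 18.1% of all genes passed, 10% higher and 8.06% lower. Groups did not overlap for 3 of 9 there (Sptssa, Cers5 and Cers6), against 41.1% of all genes. The member medians were 0.10 in Tconv KO against Tconv WT (0.00 for all genes), -0.00 in Treg KO against Tconv KO (-0.01) and 0.01 in Treg WT against Tconv WT (-0.02). The shares of members called lay near the background in these 4 comparisons and are not a result about the family.

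On the per-kb scale the members spanned a wide range of levels. In Treg KO the order of mean normalized counts per kb was Cers2 at 256, Sptssa at 182, Ormdl3 at 140.1, Cers5 at 135, Sptlc1 at 86.1, Ormdl1 at 75.4, Ormdl2 at 70.1, Sptlc2 at 51.7 and Cers6 at 8.63. In Treg WT Sptssa stood first, at 283, above Cers2 at 243, and these neighbours did not overlap. In Tconv KO Sptssa at 291 and Cers2 at 256 overlapped, and in Tconv WT Cers2 at 249.97 and Sptssa at 249 overlapped. Treg KO was thus the group in which every Cers2 library lay above every Sptssa library. Below them the order Ormdl3, Cers5, Sptlc1 held in all 4 groups, although Ormdl3 overlapped both of its neighbours in Treg KO, Sptlc1 and Ormdl1 overlapped there too, and Cers5 and Sptlc1 overlapped in Tconv KO. Ormdl1, Ormdl2 and Sptlc2 followed, the Ormdl pair overlapping in every group and Sptlc2 overlapping its neighbour in Treg KO and Tconv WT, and Cers6 was last everywhere, at 8.37 in Treg WT, 19.5 in Tconv KO and 21.5 in Tconv WT. The ratio of Cers6 to Cers5 per kb was 0.0641 in Treg KO, 0.0604 in Treg WT, 0.165 in Tconv KO and 0.190 in Tconv WT.

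**Figure D4:**
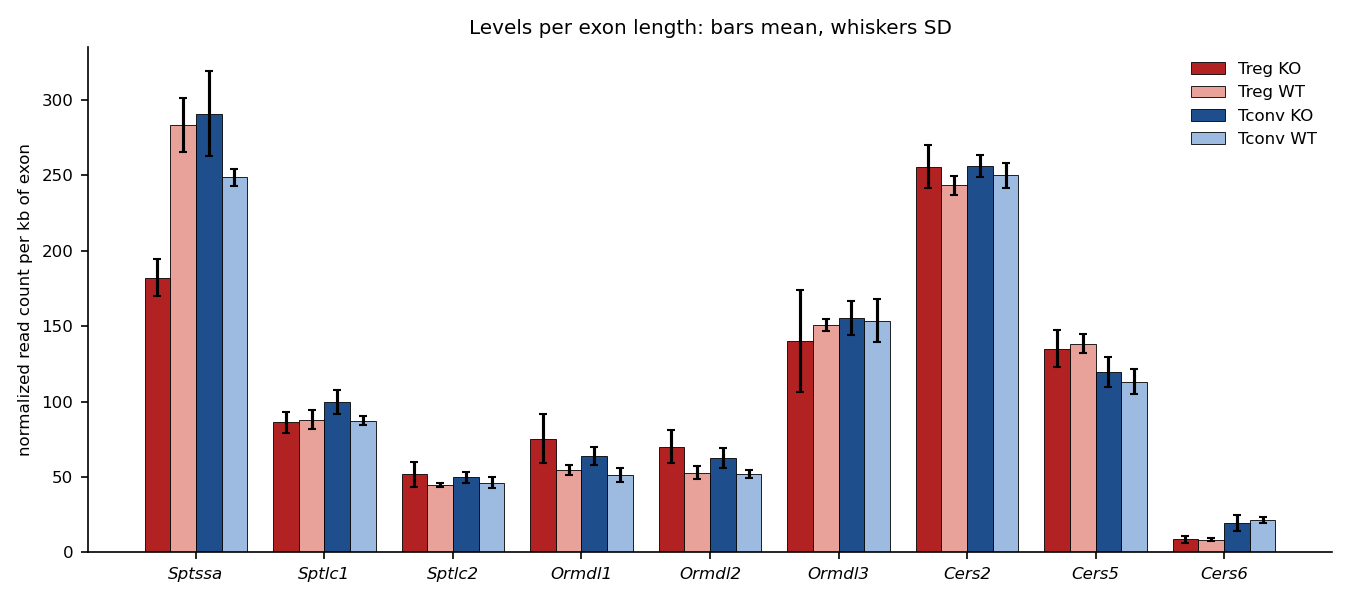
Mean normalized counts per kb of exon for the 9 genes in the 4 groups; bars are means and whiskers SD over libraries. Sptssa and Cers2 lead in every group and Cers6 is last, from 8.37 in Treg WT to 21.5 in Tconv WT.

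The genes whose log2 levels ran most like those of each called member over the 15 libraries were found among 8645 genes with a mean of at least 50, as a description over libraries that fall into 4 groups and share their depth differences. Sptssa ran closest to Dusp2, a phosphatase of MAP kinases (Pearson r = 0.93), Kctd2 (0.90) and Myeov2 (0.90). Dusp2 averaged 869.7 ± 79.4 in Treg KO and 1217 ± 99.3 in Treg WT, a fall of 0.49 ± 0.10 on the log2 scale (adjusted p = 0.0058). Ormdl1 ran closest to Kpna3, a nuclear import factor (0.94), Rbm41 (0.93) and Vps4b (0.92). Ormdl2 ran closest to Wdr76 (0.88), Nod2 (0.86) and Txndc17 (0.85), and Cers5 to Tdrd7 (0.89), Ifnar2 (0.89) and Ncoa7 (0.87). Cers6 had the closest partners, Ppm1h (0.98), Pag1, an adaptor that restrains Src kinases (0.98), and Amigo2 (0.97). Amigo2 averaged 66.7 ± 22.7 in Treg KO, 72.1 ± 4.43 in Treg WT, 235 ± 63.8 in Tconv KO and 249.999 ± 13.9 in Tconv WT.

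Short motifs were searched on both strands of the promoter windows of the members and of all 32851 RefSeq windows of 300 bases. A member was counted if any of its windows held the motif, while the percentages are shares of windows and not of genes. Cers2 has a further window, in which none of these motifs was found. GGGCGG was found for 8 of 9 members, all but Cers6, and in 35.7% of all windows. CCAAT was found for 7 of 9 and in 37.4% of windows. TGACG, the core bound by CREB factors downstream of prostaglandin E2 receptors, was found for Sptssa, Sptlc1, Ormdl3 and Cers6 and in 20.8% of windows; the full palindrome TGACGTCA, which contains it, was found for Ormdl3 alone and in 1.79%. CACGTG was found for Cers2 and Cers6 and in 7.15%, and neither TATAAA (13.6%) nor the forkhead motif GTAAACA (3.65%) was found for any member. Whether any of these motifs has a part in the differences above was not tested. A match describes letters in a window and not a bound site.

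Beyond the members, 70 further genes of sphingolipid metabolism were listed, of which 67 were in the table and 52 passed the filter on low values. In Treg KO against Treg WT 5 rose and 6 fell, 21.2% of those tested against 21.5% of all genes, with a median of 0.04. In Tconv KO against Tconv WT 0 passed in limma, where 0.681% of all genes did, and 0 in edgeR. DESeq2 called S1pr5 and Tecr there, and 236 of all genes. An unadjusted limma p under 0.05 was found for 9 of the 52, and for 1358 of the 11314 genes tested. S1pr5 averaged 28.3 ± 8.85 in Tconv KO and 7.03 ± 4.17 in Tconv WT; its log2 difference of 1.94 did not pass in limma (adjusted p = 0.089), except with a pseudocount of 8 (0.012), with no filter on low values (0.036) and without Treg KO replicate 3 (0.046). In Treg KO against Tconv KO 7 were higher and 13 lower, 38.5% of those tested. Of all genes 31.4% passed there, 15.8% higher and 15.6% lower. In Treg WT against Tconv WT 5 were higher and 8 lower, 25% of those tested. Of all genes 18.1% passed there, 10% higher and 8.06% lower. The lower genes in both include S1pr5 and Elovl7, which reached the filter on low values only through Tconv libraries. The interaction test called 0 of the 52 in limma, edgeR and DESeq2, where limma called 0.15% of all genes. An unadjusted limma p under 0.05 was found for 6 of the 52 there, and for 963 of the 11314 genes tested.

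The other steps of ceramide synthesis comprised 10 genes, 8 of them in the table and 5 tested. Cers1, Cers3 and Fa2h had at most 3 reads in any group and were not tested. Cers4, a further ceramide synthase, was tested and passed in no comparison in limma. It averaged 547 ± 142 in Treg KO, 378 ± 22.3 in Treg WT, 439 ± 173 in Tconv KO and 303 ± 28.4 in Tconv WT. Degs2, a desaturase that also hydroxylates dihydroceramide, fell in Treg KO, with 321 ± 49.1 in Treg KO and 436 ± 42.2 in Treg WT (log2 difference -0.45 ± 0.14, adjusted p = 0.032). That call ended after removal of the GC trend (adjusted p = 0.27) or the length trend (0.13) and without Treg KO replicate 1 (0.084) or 3 (0.058) or Treg WT replicate 1 (0.10), 2 (0.053), 3 (0.053) or 4 (0.056). Kdsr, which reduces the product of serine palmitoyltransferase, was higher in Treg in both genotypes, at 295 ± 21.4 in Treg KO and 222 ± 21.8 in Tconv KO (0.41 ± 0.08, adjusted p = 0.0016) and at 273 ± 6.17 in Treg WT and 220.5 ± 15.4 in Tconv WT (0.31 ± 0.09, adjusted p = 0.026). Degs1, the main dihydroceramide desaturase, was lower in Treg, by -0.45 ± 0.12 in Treg KO against Tconv KO (adjusted p = 0.0083) and by -0.41 ± 0.13 in Treg WT against Tconv WT (adjusted p = 0.033). Between the KO groups, the Degs1 call ended in the fit of only the groups compared (0.057) and the Kdsr call with GC and length trends both removed (0.073). Between the WT groups, the Kdsr call ended after removal of the GC trend (0.11) or the length trend (0.12), at 1 common depth (0.14) and with any 1 of the 7 WT libraries left out except Tconv WT replicate 3 (0.051 to 0.14). The Degs1 call there ended at 1 common depth (0.052) and with any 1 of the 7 WT libraries left out except Treg WT replicate 2 (0.058 to 0.13).

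Among 18 genes of ceramide turnover and sphingosine 1-phosphate, 13 were tested, and 2 rose and 2 fell in Treg KO against Treg WT. Of all genes tested, 10.4% rose and 11.1% fell there. Sphk2, a kinase that makes sphingosine 1-phosphate, had 235 ± 43.8 in Treg KO and 379 ± 34.1 in Treg WT, a log2 difference of -0.70 ± 0.12 (adjusted p = 0.0017) that passed in every alternative. Sphk2 was lower in Tconv KO too, at 306 to 361 normalized counts against 402 to 452 in Tconv WT. That difference did not pass in limma, except without Treg KO replicate 3 (-0.37, adjusted p = 0.036). The neutral ceramidase Asah2 rose, with 149 ± 20.5 in Treg KO and 101 ± 11.3 in Treg WT (0.55 ± 0.14, adjusted p = 0.015). Asah2 was also higher in Treg than in Tconv in both genotypes, and both comparisons passed. It averaged 52.4 ± 8.08 in Tconv KO (Treg KO against Tconv KO 1.49 ± 0.14, adjusted p = 2.0e-06) and 59.1 ± 4.36 in Tconv WT. Sgpl1, the lyase that ends the pathway, rose by 0.26 ± 0.08 (adjusted p = 0.034), and the receptor S1pr4 fell by 0.54 ± 0.18 (adjusted p = 0.040). After removal of the GC trend the calls ended for Asah2 (0.089), Sgpl1 (0.071) and S1pr4 (0.41). In the fit of only the groups compared they ended for Sgpl1 (0.063) and S1pr4 (0.097), at 1 common depth for Sgpl1 (0.29), with no filter on low values for S1pr4 (0.055), and with the length trend removed for Sgpl1 (0.064) and S1pr4 (0.052). They also ended for Asah2 without Treg WT replicate 1 (0.057), for Sgpl1 without Treg KO replicate 1 or 3 or Treg WT replicate 1 or 4 (0.065 to 0.11), and for S1pr4 without any 1 of 9 of the 15 libraries, 4 of them Tconv (0.051 to 0.10). The egress receptor S1pr1 did not pass between genotypes in Treg (-0.27 ± 0.11, adjusted p = 0.078, or 0.0077 without Treg KO replicate 4) but was lower in Treg KO than in Tconv KO (-0.87 ± 0.11, adjusted p = 1.9e-05) and in Treg WT than in Tconv WT (-0.66 ± 0.11, adjusted p = 6.2e-04). S1pr5, a receptor best known from NK cells, had 0 reads in Treg KO and 117 in Tconv KO, at least 28.1-fold lower in Treg KO taking 3 counts over the group as the floor, and 1 read in Treg WT and 32 in Tconv WT. S1pr5 entered the test only through Tconv libraries, where it is high, so these values are a description.

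Among 28 genes of sphingomyelin and glycosphingolipids, 25 were tested, and 2 rose and 2 fell in Treg KO against Treg WT. The shares of all genes tested were 10.4% and 11.1%. Sgms1, a sphingomyelin synthase, rose, with 343 ± 45.2 in Treg KO and 194 ± 21.6 in Treg WT (0.81 ± 0.13, adjusted p = 0.0011), and passed in every alternative. It was still lower than in conventional cells, which averaged 581 ± 118 in Tconv KO (Treg KO against Tconv KO -0.75 ± 0.13, adjusted p = 5.4e-04) and 446 ± 12.9 in Tconv WT. Ugcg, which adds glucose to ceramide, fell, with 514 ± 133 in Treg KO and 764 ± 54.8 in Treg WT (-0.61 ± 0.17, adjusted p = 0.021), a call that ended without Treg KO replicate 1 (0.055) or 3 (0.063) or Treg WT replicate 4 (0.060). Ugcg was also lower in Treg than in Tconv, by -1.27 ± 0.17 in KO (adjusted p = 4.6e-05) and -0.93 ± 0.18 in WT (adjusted p = 0.0019). Gm2a rose by 0.33 ± 0.09 (adjusted p = 0.018) and Psap fell by 0.25 ± 0.07 (adjusted p = 0.025), both helper proteins of lysosomal glycolipid breakdown, and both calls ended after removal of the GC trend (0.072 and 0.43) or the length trend (0.050 and 0.059). Psap also lost its call in the fit of only the groups compared (0.052). Gm2a also lost its call without Treg WT replicate 2 (0.051), and Psap without Treg KO replicate 3 (0.060) or Treg WT replicate 1 (0.062) or 4 (0.073). Ceramide kinase, Cerk, was higher in Treg than in Tconv, by 1.15 ± 0.17 in KO (adjusted p = 1.2e-04) and 1.37 ± 0.18 in WT (adjusted p = 6.9e-05), and differed by -0.13 ± 0.17 between Treg KO and Treg WT (adjusted p = 0.62).

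Among 14 genes of acyl-CoA elongation and supply, 9 were tested. Tecr, the last reductase of the elongation cycle, fell, with 493 ± 48.2 in Treg KO and 653 ± 73.9 in Treg WT (-0.40 ± 0.10, adjusted p = 0.012), and the acyl-CoA binding protein Dbi rose by 0.47 ± 0.12 (adjusted p = 0.012). Tecr lost its call after removal of the GC trend (adjusted p = 0.32) or the length trend (0.10) and Dbi at 1 common depth (0.24). Tecr differed by -0.41 ± 0.11 in Tconv KO against Tconv WT, which did not pass (adjusted p = 0.12, or 0.048 without Treg KO replicate 3). The elongase Elovl7 was lower in Treg than in Tconv in both genotypes, with 3 reads in Treg KO and 88 in Tconv KO, and 7 in Treg WT and 88 in Tconv WT. Elovl7 entered the test only through Tconv libraries, where it is high, so these values are a description.

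**Figure D5:**
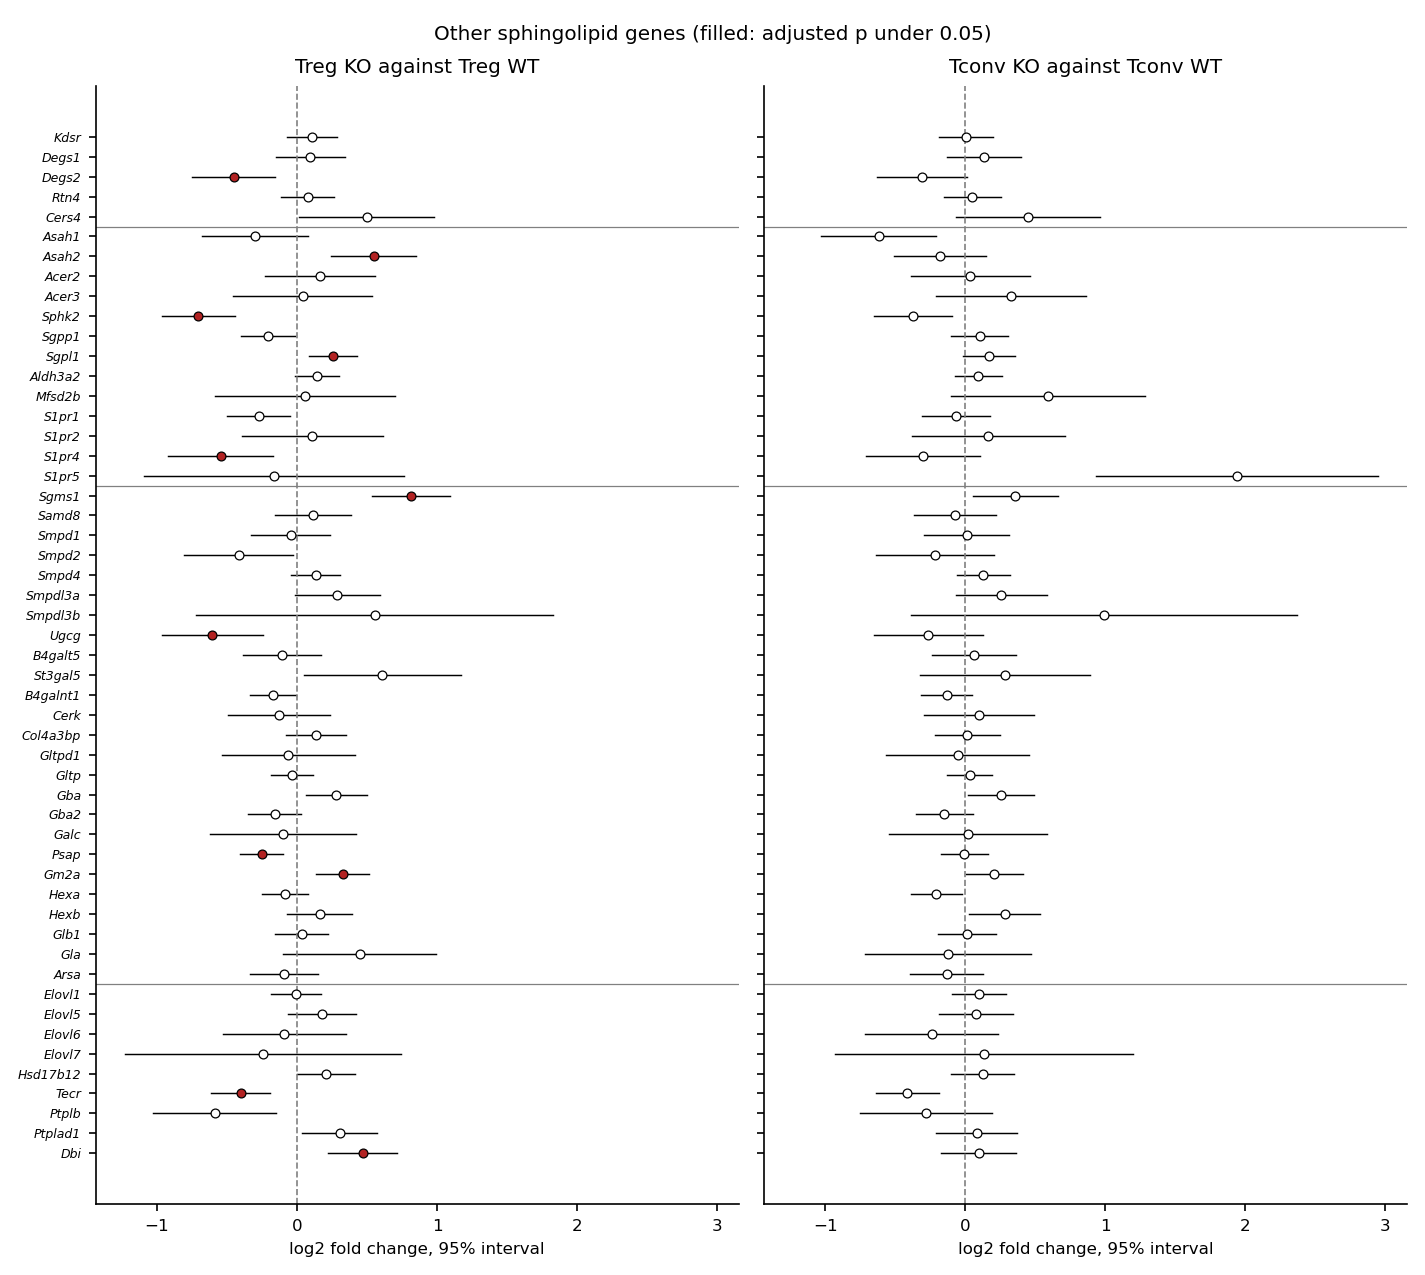
Log2 differences of the wider sphingolipid genes that passed the filter on low values, by list, in Treg KO against Treg WT and in Tconv KO against Tconv WT; filled points have an adjusted p under 0.05 in limma. In Treg KO 5 lie higher and 6 lower, and in Tconv KO 0 points are filled.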

How the data were processed

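RNA of sorted splenic Treg and Tconv cells was sequenced in 15 libraries prepared with an Illumina TruSeq kit, per the labels' protocols. TopHat and the build mm10 are named in the submitters' processing notes. The sources used here do not state how reads were counted or against which annotation. Per gene and library the authors deposited a normalized signal, for 17594 genes. Each library's values are whole multiples of a single step, the mark of counts divided by a size factor, and dividing by that step gave whole reads for 100% of values (tolerance 0.001). Libraries held 2.64 to 11.1 M reads, and fewer reads give wider errors.

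The 11314 genes that reached a value of 10 in 3 or more libraries were tested. Log2(value + 1) was fitted with 4 group means over all 15 libraries in limma 3.58.1 (R 4.3.3), with a trend on mean level. Tests were two-sided, with Benjamini-Hochberg adjustment over all genes tested, and passing means an adjusted p under 0.05. Fold changes are on the log2(value + 1) scale. Replicates were numbered in accession order, since the labels give group and sample number but no animal; p-values measure the spread between samples, which may be technical. Treg and Tconv libraries were treated as independent.

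The 9 members and the gene lists were chosen with earlier results of these data known. Named genes are the members, up to 4 genes per wider list and comparison with the smallest p among those that passed, the 3 genes most like each called member, and checks of the labels. Cers4 was named in addition, as a further ceramide synthase, and was not followed through the alternatives. Alternatives were edgeR 4.0.16 and DESeq2 1.42.0 on whole reads, a pseudocount of 8, no filter, TMM factors, only the groups compared, GC trends removed, thinning to 2635841 reads, and each library left out. Removal of length trends, alone or with GC trends, and a block on neighbouring sample numbers were added after seeing the data. The fit was tested on simulated data. Positions, exon lengths and GC came from GENCODE for GRCm38, matched for 16651 symbols and 680 older symbols, with 58 ambiguous and 205 unmatched; levels per kb use total exon length. Promoter windows came from RefSeq (GRCm38.p6), whose table matched all 9 members. Figures were drawn with matplotlib 3.10.9.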

Additional observations from a re-analysis of the deposited data

Results flagged for a closer look

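Sptlc1 in Tconv KO replicate 3 stood above the other libraries of its group, at 396 normalized counts against 344 for the next highest, in a group whose range was 337 to 396. The gap was 0.886 of the range, above Dixon's 95% critical value of 0.829 for 4 samples. It was the 1 such library among 27 groups of 4 examined over the 9 genes, where chance gives about 1 in 20.

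The KO against WT difference of Sptssa differed between cell types, with an interaction of -0.86 (limma, adjusted p = 0.0078). Sptssa was lower in all 4 Treg KO libraries than in all 4 Treg WT libraries, and higher in all 4 Tconv KO libraries than in all 3 Tconv WT libraries.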

How the results depend on the processing

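Over 9 genes, 5 contrasts and all alternatives, no direction reversed among calls; 1111 values kept their side of the threshold, 24 lost a call and 8 gained one, and for the other named genes the numbers were 2421, 89 and 30. Where a cause is not part of an alternative's construction, the cause was not tested.

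In Treg KO against Treg WT, 2431 genes passed, against 1509 with the GC trend removed, 1404 with GC and length trends removed, and 1393 to 2743 with 1 library left out. Members passing were 3, against 1 in the fit of these groups alone, 1 with the GC trend removed, 1 with both trends removed, and 1 to 3 with 1 library left out. In Tconv KO against Tconv WT, 77 genes passed, against 236 in DESeq2, 32 in the fit of these groups alone, and 22 to 249 with 1 library left out, the highest without Treg KO replicate 3. In Treg WT against Tconv WT, 2046 genes passed, against 3990 in the fit of these groups alone and 1407 to 2524 with 1 left out. Members passing there were 2, against 1 with the length trend removed, 1 at 1 common depth, and 1 to 2 with 1 left out. In Treg KO against Tconv KO, 3558 genes passed, against 2042 in the fit of these groups alone and 2907 to 3897 with 1 left out, with 2 to 3 members. For the interaction, 17 genes passed, against 88 in DESeq2, 8 with the length trend removed, 10 at 1 common depth, and 3 to 23 with 1 left out; the 1 member passing, Sptssa, became 0 with the length trend removed.

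The labels give no replicate number or animal shared between groups, but sample numbers run in 7 neighbouring pairs of 1 Treg and 1 Tconv library of the same genotype. Whether neighbours share an animal is not stated, so a fit with these pairs as a replicate block, chosen after seeing the data, is given here as a hint from the data. Deviations from group means correlated across genes at 0.016 to 0.21 within WT pairs and at 0.21 to 0.54 within KO pairs. In 6 of 7 pairs the Treg library correlated best with its own neighbour. The candidates were only the 3 Tconv WT or the 4 Tconv KO libraries, so some such matches can arise by chance. The block, on 14 libraries, called 2337 genes in Treg WT against Tconv WT, 4280 in Treg KO against Tconv KO and 14 for the interaction. It called 1, 3 and 1 members in these comparisons: Cers5 was not called between WT groups (adjusted p = 0.12) and Sptlc1 was called between KO groups (0.0496). Among the other named genes, Acer3 (0.057) and Kdsr (0.070) were not called and Degs2 (0.037) and Ptplad1 (0.0082) were called between WT groups. Genotype contrasts lie between pairs and could not be fitted with this block. Depth limits the members with the fewest reads, Cers6 and Ormdl2, most, and the shallowest library, Treg KO replicate 3, most of all.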
